A study of Homo sapiens with 6 samples.

Results

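SFPQ, NONO and PSPC1 are the 3 human genes of the DBHS family (Drosophila behaviour/human splicing), and MATR3 and RBM14 encode RNA-binding proteins that work with them in the nucleus. Expression of these 5 genes was examined in SH-SY5Y cells, a human neuroblastoma line of neuronal type, after knockdown of PSF, the protein that SFPQ encodes. The 5 genes were chosen by name, for what their proteins are known to do, with the siPSF and siControl values of these same libraries already known, so every difference given for them between siPSF and siControl is a description and carries no test. All 5 were among the 21301 genes in the table, and all 5 were among the 19694 that passed the filter on low counts. The cells received 10 nM of siPSF or of siControl for 72 h, with 3 biological replicates per group and no other treatment or genotype. A single siRNA against PSF, the one the study numbers as its second, was used for sequencing, so effects of PSF loss and of that siRNA sequence cannot be told apart. These libraries measured RNA and not protein, and in bulk RNA a smaller number of expressing cells and less RNA per cell cannot be told apart. The study also examined PSF protein by western blot in SH-SY5Y cells given siPSF.

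DBHS proteins carry paired RNA recognition motifs, a NOPS domain and a coiled coil, through which they form homodimers and heterodimers with each other. PSF and NONO take part in transcription, splicing, nuclear retention of RNA and DNA repair, and PSPC1 is their close relative. Together with the long noncoding RNA NEAT1 they build paraspeckles, nuclear bodies that hold back RNA and proteins; PSF and NONO are needed for these bodies to form, as is RBM14, which helps to assemble NEAT1 with its proteins. MATR3 encodes matrin-3, a nuclear matrix protein that binds RNA and regulates splicing, and that is found in complexes with PSF and NONO.

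To show how alike the 3 DBHS transcripts are, the most similar stretch of 90 bases in their coding sequences is printed here from GRCh38, on the coding strand, 5′ to 3′, with capitals where all 3 genes carry the same base.
SFPQ: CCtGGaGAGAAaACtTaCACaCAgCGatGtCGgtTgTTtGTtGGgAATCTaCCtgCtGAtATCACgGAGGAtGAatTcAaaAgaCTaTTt
NONO: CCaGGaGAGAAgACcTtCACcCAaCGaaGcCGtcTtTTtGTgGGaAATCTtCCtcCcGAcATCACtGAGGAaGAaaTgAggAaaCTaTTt
PSPC1: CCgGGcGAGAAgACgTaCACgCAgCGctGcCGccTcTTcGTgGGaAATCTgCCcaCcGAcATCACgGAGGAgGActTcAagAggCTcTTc
The stretch lies in exon 2 of SFPQ (chr1:35191407-35191496, minus strand), in exon 4 of NONO (chrX:71291817-71291906, plus strand) and in exon 1 of PSPC1 (chr13:19782452-19782541, minus strand), counted on the MANE Select transcript, the agreed reference transcript of each gene. It holds 58 bases shared by all 3 genes, and each pair of genes shares 66 of the 90. Sequencing reads were 50 bases long, and no run of 50 bases in any of the 5 MANE Select transcripts occurs in another of the 5. Reads of one member therefore had no perfect full-length match in another member's reference transcript.

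In GRCh38.p14, SFPQ (gene ID 6421) spans bases 35176380 to 35193145 of chromosome 1. NONO (gene ID 4841) lies on chromosome X from 71283635 to 71301168 and PSPC1 (gene ID 55269) on chromosome 13 from 19671205 to 19782945. MATR3 (gene ID 9782) lies on chromosome 5 from 139274101 to 139331677 and RBM14 (gene ID 10432) on chromosome 11 from 66616630 to 66629934. Of 8 annotated genes that overlap a member, 3 were in the table, and so were 3 of the 7 pseudogenes that RefSeq names after a member; GENCODE holds further copies. Some 50-base runs of the members also occur in a transcript of another gene. Their share was 17.42% for NONO, 12.95% for PSPC1, 7.13% for RBM14, 4.98% for MATR3 and 2.60% for SFPQ. For PSPC1 all of these runs occur in PSPC1P1, a pseudogene on the same chromosome. For RBM14 they occur in RBM14-RBM4, a readthrough transcript with the neighbouring gene RBM4. For NONO 441 of its 455 shared runs occur in 1 other GENCODE gene. How many reads NONO shares with that gene was not tested. The 96 shared runs of SFPQ were spread over 329 genes, and the leading gene held 33.

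Summed counts ran from 101540520 to 132420931 per library. Levels are given as CPM, a count relative to the library's total, after scaling libraries by edgeR's TMM method, and differences as log2 fold changes of siPSF against siControl from edgeR. Across all tested genes, the quasi-likelihood test of edgeR called 1628 lower and 1310 higher with the Benjamini-Hochberg adjusted p held under 0.05, which makes 55.4% of the called genes lower. Scaling by summed counts alone gave 2274 lower and 831 higher, and limma on log2(FPKM + 0.5) gave 1782 lower and 736 higher. All 13 markers of noradrenergic neuroblastoma cells on a fixed list were in the table, with a summed level of 6364 to 7092 CPM in siControl and 5784 to 7003 CPM in siPSF; TH, which encodes the first enzyme of catecholamine synthesis, was low, with a siControl mean of 0.741 CPM. Of 10 mesenchymal markers 8 were in the table, and their sum was 155 to 158 CPM in siControl and 119 to 156 CPM in siPSF. DBH, TH and ELAVL4 of the noradrenergic list and FN1 and COL3A1 of the mesenchymal list were called lower and GATA3 of the noradrenergic list higher; the part of these shifts in the members' values was not tested.

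SFPQ, the targeted gene, was lower in every siPSF library. It stood at 372, 356 and 402 CPM in the siControl libraries and at 209, 193 and 165 CPM in the siPSF libraries. The highest siPSF value lay well under the lowest siControl value, and siPSF replicate 3 kept the least SFPQ RNA. The group means were 377 ± 23.1 CPM for siControl and 189 ± 22.3 CPM for siPSF (SD, n = 3 each). The log2 fold change was -0.99 (SE 0.10), with a 95% interval from -1.21 to -0.78, which leaves 50.2% of the siControl level (43.2% to 58.3%). Among all tested genes SFPQ was the 617th from the lowest log2 fold change.

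PSPC1, the DBHS gene with the fewest counts, moved the other way. Its level was 50.2, 39.4 and 41.4 CPM in siControl and 93.5, 92.6 and 98.7 CPM in siPSF. The siPSF libraries lay close together, all above the siControl libraries, which spread more widely. The group means were 43.7 ± 5.75 CPM for siControl and 94.9 ± 3.30 CPM for siPSF (SD, n = 3 each). The log2 fold change was 1.12 (SE 0.10), with a 95% interval from 0.90 to 1.34, or 2.17-fold (1.87 to 2.53). PSPC1 ranked 272nd from the highest log2 fold change among the 19694 genes. The paralog and the targeted gene differed by a like amount on the log2 scale in opposite directions.

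NONO, the usual dimer partner of PSF and the most abundant DBHS gene, differed little. It was measured at 719, 728 and 677 CPM in siControl and at 805, 810 and 841 CPM in siPSF. The groups did not overlap, and the gap between them was small beside the level of the gene. The group means were 708 ± 27.3 CPM for siControl and 819 ± 19.6 CPM for siPSF (SD, n = 3 each), and the log2 fold change was 0.21 (SE 0.08), with a 95% interval from 0.03 to 0.38. The size of this difference depended on how libraries were scaled, being 0.13 with summed counts alone and 0.02 (-0.11 to 0.14) with limma after FPKM had been rescaled to 1 common sum in each library. On that last scale the median of all genes was -0.16, so relative to the typical gene NONO still lay above it.

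MATR3 overlapped between the groups. Its level was 182, 164 and 212 CPM in siControl and 259, 224 and 207 CPM in siPSF. The lowest siPSF library, replicate 3, lay below the highest siControl library, also replicate 3. The means were 186 ± 24.4 CPM (SD, n = 3) and 230 ± 26.7 CPM (SD, n = 3), and the log2 fold change was 0.31 (SE 0.11), with a 95% interval from 0.07 to 0.55. Leaving out siControl replicate 3 gave 0.41 and leaving out siPSF replicate 3 gave 0.38. Without siControl replicate 2 it was 0.22 (-0.05 to 0.48) and without siPSF replicate 1 it was 0.21 (-0.04 to 0.47), with intervals that included 0. The other omissions gave 0.29 (siControl replicate 1) and 0.33 (siPSF replicate 2).

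RBM14, which also acts as a coactivator of nuclear receptors, was measured at 67.9, 71.7 and 61.6 CPM in siControl and at 71.4, 75.9 and 83.3 CPM in siPSF. Only the highest siControl library and the lowest siPSF library overlapped, by a narrow margin. The means were 67.1 ± 5.08 CPM (SD, n = 3) and 76.9 ± 5.99 CPM (SD, n = 3). The log2 fold change was 0.20 (SE 0.09), with a 95% interval from -0.0025 to 0.40. On rescaled FPKM it was 0.0045, where the median of all genes was -0.16.

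Of the 5 genes, 1 was called lower (SFPQ) and 1 higher (PSPC1), beside 8.27% of all tested genes called lower and 6.65% called higher. The groups did not overlap for 3 of the 5 (SFPQ, NONO and PSPC1), beside 34.4% of all tested genes. Because this contrast was known when the genes were chosen, nothing is read from either count.

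**Figure D1:**
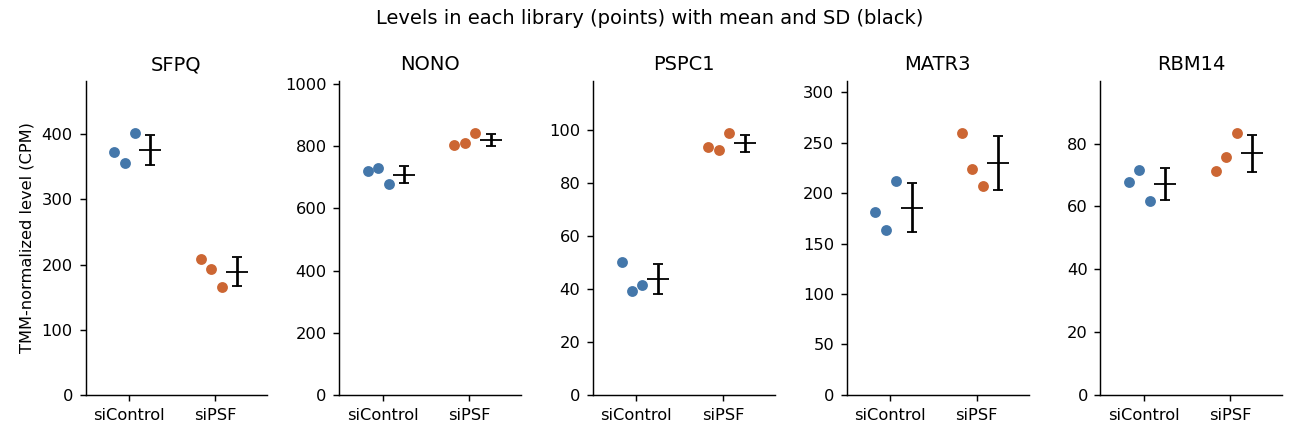
TMM-normalized CPM (y axes, each from 0) of SFPQ, NONO, PSPC1, MATR3 and RBM14 in the 3 siControl (blue) and 3 siPSF (orange) libraries; points are libraries and the black mark is the mean with its SD. SFPQ falls from 377 to 189 CPM and PSPC1 goes from 43.7 to 94.9 CPM, while MATR3 and RBM14 overlap between the groups.

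A ratio of 2 genes' counts within a library does not depend on how libraries are scaled. Per count of SFPQ, the siControl libraries held 1.93, 2.05 and 1.69 counts of NONO, and the siPSF libraries held 3.85, 4.20 and 5.10. For PSPC1 the ratio was 0.135, 0.111 and 0.103 in siControl and 0.447, 0.480 and 0.598 in siPSF. For MATR3 it was 0.488, 0.460 and 0.528 in siControl and 1.24, 1.16 and 1.25 in siPSF, so MATR3 counts passed SFPQ counts in every siPSF library and in no siControl library. For RBM14 it went from a mean of 0.179 ± 0.0241 (SD, n = 3) to 0.413 ± 0.0833 (SD, n = 3). All 4 ratios were separated between the groups. The mean ratio was 4.38 times its siControl value for PSPC1 and between 2.31 and 2.48 times for the other 3 genes, which share the fall of their common denominator.

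Ratios that leave SFPQ out were added after the values had been seen. Per 1000 counts of NONO there were 69.8, 54.1 and 61.1 counts of PSPC1 in siControl and 116, 114 and 117 in siPSF, a mean ratio of 1.88 times its siControl value. The same ratio was 263 ± 45.2 and 282 ± 38.3 (SD, n = 3 each) for MATR3 and 94.6 ± 3.69 and 93.8 ± 5.12 (SD, n = 3 each) for RBM14 in siControl and siPSF. The MATR3 and RBM14 ratios differed by less than the spread between replicates, and only the PSPC1 ratio was separated between the groups.

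**Figure D2:**
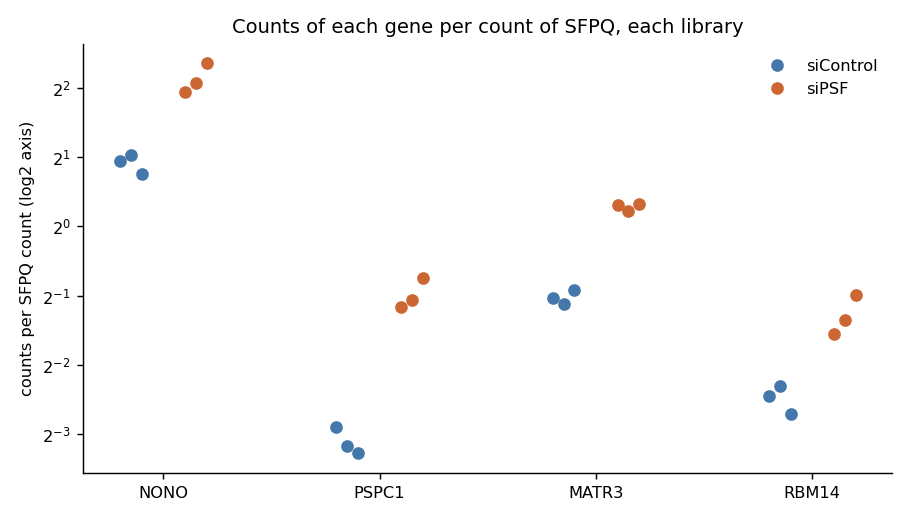
Counts of NONO, PSPC1, MATR3 and RBM14 per count of SFPQ in the same library (y axis, log2 scale), with one point per siControl (blue) or siPSF (orange) library. The 2 groups are separated for each gene, and the gap is widest for PSPC1, from a mean of 0.116 to 0.508.

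Whether the paralogs make up for the loss of SFPQ RNA was examined per length, since a long transcript gives more reads than a short one at the same number of molecules. The deposited FPKM values (fragments scaled by transcript length and by depth) of SFPQ were 43.2, 40.1 and 49.6 in siControl and 22.8, 20.8 and 18.8 in siPSF. NONO stood at 249, 251 and 243 FPKM in siControl and 270, 267 and 277 FPKM in siPSF. PSPC1 stood at 16.8, 12.4 and 13.6 FPKM in siControl and 30.9, 31.7 and 35.4 FPKM in siPSF. On this scale SFPQ and PSPC1 changed places, since PSPC1 lay below SFPQ in each siControl library and above it in each siPSF library.

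Summed over the 3 DBHS genes, the level was 306 ± 2.67 FPKM (SD, n = 3) in siControl and 325 ± 6.03 FPKM (SD, n = 3) in siPSF, or 106% of siControl. NONO made up 80.9% of the sum in siControl and 83.5% in siPSF. The share of SFPQ went from 14.5% ± 1.53 to 6.40% ± 0.678 (SD, n = 3) and that of PSPC1 from 4.65% ± 0.698 to 10.1% ± 0.569 (SD, n = 3). The mean of SFPQ fell by 23.5 FPKM, beside a gain of 18.4 FPKM in PSPC1 and of 23.7 FPKM in NONO. Giving every library an equal FPKM total put the sum at 98.0% of siControl, with 319 ± 12.7 in siControl and 312 ± 7.37 in siPSF (SD, n = 3 each). The groups then overlapped, with 306.9 to 332.2 in siControl and 304.3 to 318.7 in siPSF. The median log2 fold change of all genes on rescaled FPKM was -0.16, so 98.0% is not a fall relative to the typical gene. On that scale the gain of NONO was 3.15 and that of PSPC1 16.6, while SFPQ fell by 26.25.

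The length behind the FPKM values bears on these sums. Counts and FPKM together imply a length of 8880 bases for SFPQ (8512 to 9053 over the libraries), 2.37 times the 3740 bases of its MANE Select transcript. For NONO the implied length was 2933 bases beside 2661, for PSPC1 3018 (2710 to 3205) beside 2435, for MATR3 5686 beside 5069 and for RBM14 5899 beside 5367. SFPQ was thus divided by a much longer length than its reference transcript and the other 4 by a length 1.10 to 1.24 times theirs. If SFPQ counts include reads from outside its MANE Select transcript, division by the MANE Select length sets its level too high. Which bases the counts cover was not settled. Dividing CPM by the MANE Select length, an alternative chosen after the data were seen, gave SFPQ 101 ± 6.17 CPM per kb in siControl and 50.6 ± 5.95 in siPSF (SD, n = 3 each). The share of SFPQ in the DBHS sum was then 26.2% ± 1.91 in siControl and 12.7% ± 1.57 in siPSF (SD, n = 3 each). The sum was 385 ± 5.76 CPM per kb in siControl and 397 ± 3.36 in siPSF (SD, n = 3 each), or 103% of siControl. SFPQ fell by 50.1 CPM per kb, beside a gain of 41.6 in NONO and of 21.1 in PSPC1. The gain of PSPC1 was thus 42.0% of what SFPQ lost per MANE kb, whereas on FPKM it was 78.3%. The implied length of PSPC1 was shorter in siPSF than in siControl, which adds to its gain on FPKM. Its log2 fold change was 1.18 by limma on log2(FPKM + 0.5) and 1.04 with summed counts alone. SFPQ and PSPC1 together went from 58.5 to 53.4 on FPKM and from 119 to 89.5 CPM per MANE kb. On each scale tried the summed RNA of the 3 genes stayed between 98.0% and 111% of siControl, and on each PSPC1 alone gained less than SFPQ lost.

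**Figure D3:**
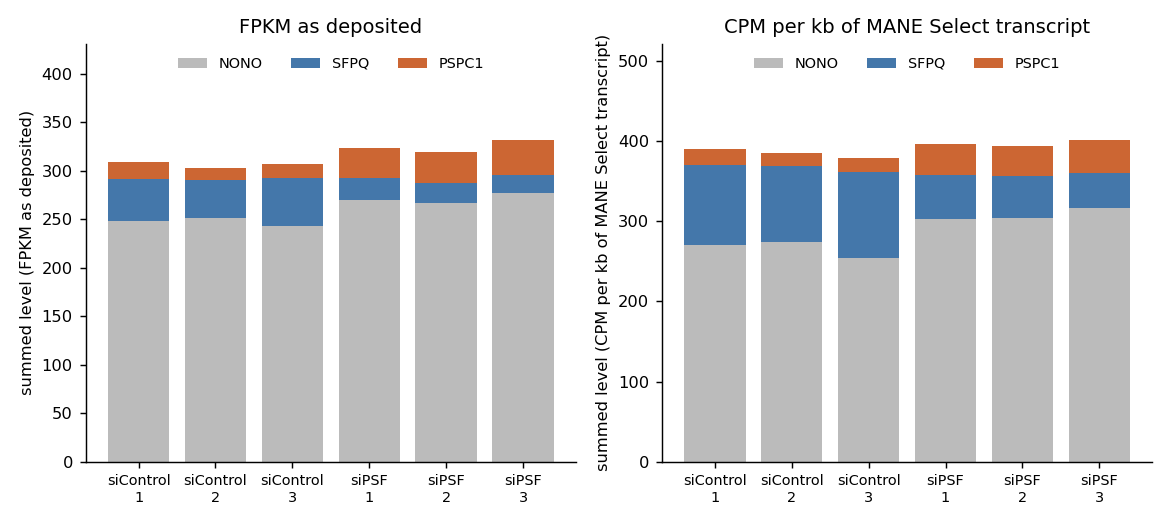
Summed level of NONO (grey), SFPQ (blue) and PSPC1 (orange) in each library, as deposited FPKM (left) and as CPM per kilobase of MANE Select transcript (right), with both axes from 0. The whole bar changes little between groups (106% and 103% of siControl), while the blue part shrinks and the orange part grows in siPSF.

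In order of siControl FPKM the members ran NONO (248), SFPQ (44.3), MATR3 (33.7), PSPC1 (14.3) and RBM14 (11.7). The ranges of MATR3 (29.0 to 39.4) and SFPQ (40.1 to 49.6) lay side by side without overlap, and so did those of PSPC1 (12.4 to 16.8) and RBM14 (11.0 to 12.3), with a narrow gap. In siPSF the order was NONO (271), MATR3 (39.3), PSPC1 (32.7), SFPQ (20.8) and RBM14 (12.7). The lowest MATR3 value and the highest PSPC1 value there were both 35.4 FPKM, so these neighbours hardly parted. Per MANE kb SFPQ kept the second place in siPSF, with 50.6 ahead of MATR3 at 45.4 and PSPC1 at 39.0, and the ranges of SFPQ (44.1 to 55.9) and MATR3 (40.9 to 51.2) overlapped.

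Genes that overlap or copy a member were set beside it. PSPC1P1 held 106, 137 and 67 counts in siControl and 254, 211 and 258 in siPSF, which is 1.27% to 2.58% of the counts of PSPC1 and PSPC1P1 together. It was higher in siPSF by 1.47 on the log2 scale (adjusted p = 0.0020 by edgeR), and because it shares sequence with PSPC1 both values are uncertain to the extent of those counts. MPHOSPH8, a chromatin silencing gene whose end overlaps that of PSPC1 by 2237 bases on the opposite strand, averaged 33.3 ± 1.36 CPM under siControl and 42.6 ± 3.61 CPM under siPSF (SD, n = 3 for both), a log2 difference of 0.36 (adjusted p = 0.024 by edgeR). SNHG4, a noncoding host gene of small nucleolar RNAs inside the span of MATR3, differed by 0.41 on the log2 scale (adjusted p = 0.058 by edgeR). RBM14-RBM4 had a mean of 2.05 ± 0.328 CPM under siControl and 2.07 ± 0.0434 CPM under siPSF, and NONOP1 one of 1.80 ± 0.227 and 1.96 ± 0.306 CPM (SD, n = 3 each), far below RBM14 and NONO. MATR3P3, listed under its older symbol LOC100499497, held 12, 8 and 12 counts in siControl and 5, 2 and 4 in siPSF, too few to pass the filter. Whether strand was used in counting is not given in the sources used here, so reads in the overlap of PSPC1 and MPHOSPH8 may have been counted for either gene.

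Other paraspeckle genes were described from a list of 40, of which 39 were tested; DLX3 was not listed. By edgeR 2 were called higher, none lower and 37 did not pass the test, beside 6.65% of all tested genes called higher and 8.27% lower. At an unadjusted p under 0.05 the list held 6 higher and 1 lower, beside 14.4% of all tested genes higher and 15.4% lower. The counts of higher genes lay near these shares and those of lower genes lay under them. The lower count depended on scaling, being 7 by limma on rescaled FPKM, where 3409 of 14827 genes tested were called lower. Nothing is read from it. DESeq2 also called 2 higher and none lower, and limma on FPKM called CPSF7 lower. The median log2 fold change of the list was 0.04, beside 0.01 for all tested genes. The 2 called genes were HNRNPA1 and RBM12. HNRNPA1, which encodes an abundant regulator of splicing, averaged 782 ± 46.2 CPM under siControl and 1218 ± 133 CPM under siPSF (SD, n = 3 for both), a log2 difference of 0.64 (adjusted p = 0.0012 by edgeR). Its many copies in the genome can share reads with it. Of 14 such copies tested 7 were called higher and none lower, so the value is uncertain. RBM12, an RNA-binding protein gene, averaged 104 ± 5.07 CPM under siControl and 129 ± 5.26 CPM under siPSF (SD, n = 3 for both), a log2 difference of 0.31 (adjusted p = 0.022 by edgeR). Its call was lost when any one of siControl replicates 1 and 2 or siPSF replicates 1 and 2 was left out, with adjusted p-values from 0.077 to 0.098 in edgeR.

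NEAT1, the RNA scaffold of paraspeckles, was at 308, 316 and 329 CPM in siControl and at 442, 427 and 300 CPM in siPSF. Replicates 1 and 2 of siPSF lay above every siControl library and replicate 3 lay below them all. The log2 fold change was 0.29 (SE 0.13; adjusted p = 0.14 by edgeR). Without siPSF replicate 3 it was 0.45 (adjusted p = 0.0027 by edgeR), so that 1 library decides the call. The same library had the lowest SFPQ and MATR3 levels of its group. The libraries were selected for poly(A) RNA, and the long form of NEAT1, on which paraspeckles are built, lacks a poly(A) tail, so its level was not measured directly.

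The genes needed for paraspeckle assembly that are named here did not pass the test. HNRNPK, an RNA-binding regulator of how the NEAT1 transcript ends, had a log2 fold change of 0.03 and HNRNPH3, another hnRNP gene, one of 0.07 (edgeR, adjusted p = 0.827 and 0.705). DAZAP1, an RNA-binding protein gene, had -0.16 (adjusted p = 0.31 by edgeR). SMARCA4, a chromatin remodelling ATPase, had 0.05, and TARDBP, which encodes TDP-43 and is located in paraspeckles, had -0.06 (edgeR, adjusted p = 0.745 and 0.672). Their 95% intervals all included 0 and reached no further than -0.37 and 0.32. On rescaled FPKM, DAZAP1 (-0.34) passed the test as lower by limma, with an adjusted p of 0.034, on a scale whose median over all genes was -0.16.

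Binding partners and relatives of the members formed a list of 13, all tested. By edgeR none was called in either direction, beside 8.27% of all tested genes called lower and 6.65% higher, and by DESeq2 none was called. At an unadjusted p under 0.05 the list held 3 lower and 1 higher, beside 15.4% and 14.4% of all tested genes, so these counts do not set the list apart. The median log2 fold change was -0.02. The 3 lower at an unadjusted p, named after their values were seen, were PTBP1 (-0.22), a splicing repressor that binds PSF, HNRNPL (-0.23), a splicing regulator, and NCOA6 (-0.22), a coactivator that binds RBM14, with adjusted p-values of 0.093, 0.084 and 0.095 in edgeR. All 3 passed the test as lower when libraries were scaled by summed counts alone and by limma on log2(FPKM + 0.5). ZNF638, a relative of MATR3, stood at a log2 difference of 0.22 (adjusted p = 0.10 by edgeR) and RBM4, the neighbour of RBM14, at 0.06 (adjusted p = 0.72 by edgeR).

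**Figure D4:**
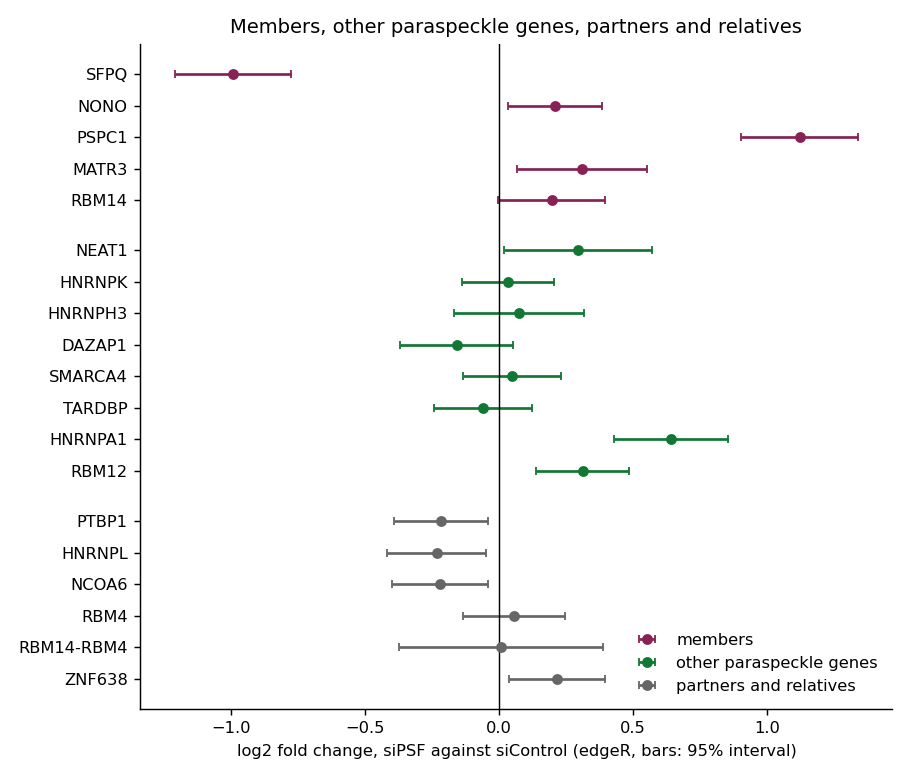
Log2 fold change of siPSF against siControl (x axis) with its 95% interval from edgeR for the members (purple), 8 other paraspeckle genes (green) and 6 partners and relatives (grey) that the text names. SFPQ (-0.99) and PSPC1 (1.12) lie far from 0 on opposite sides, HNRNPA1 (0.64) is the next in size, and the other genes drawn, which are not the whole lists, lie between -0.23 and 0.31.

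For each member, the genes whose pattern over the 6 libraries lay nearest were found, out of 10497 genes averaging 10 CPM or more, by the root mean square difference of log2 CPM from the siControl mean. For SFPQ these were MYT1L, a neuronal transcription factor gene (0.0426), DPYD, a pyrimidine catabolism gene (0.0541), and RBMS3, an RNA-binding protein gene (0.0572). For PSPC1 they were LTA4H, a leukotriene synthesis gene (0.129), HSPA8, a chaperone gene (0.142), and H2AW, a histone gene (0.164). These distances were larger than those of the other members. They depend on how many genes changed by a like amount, and PSPC1 ranked 272nd from the highest of 19694, so nothing is read from their size. NONO had EIF4A1 (0.0196), ATP5MPL (0.0198) and SNRNP40 (0.0209), RBM14 had RTL8C (0.0134), CPXM1 (0.0208) and ULK1 (0.0236), and MATR3 had VPS50 (0.0433), LRRC8D (0.05) and TBK1 (0.0527).

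**Figure D5:**
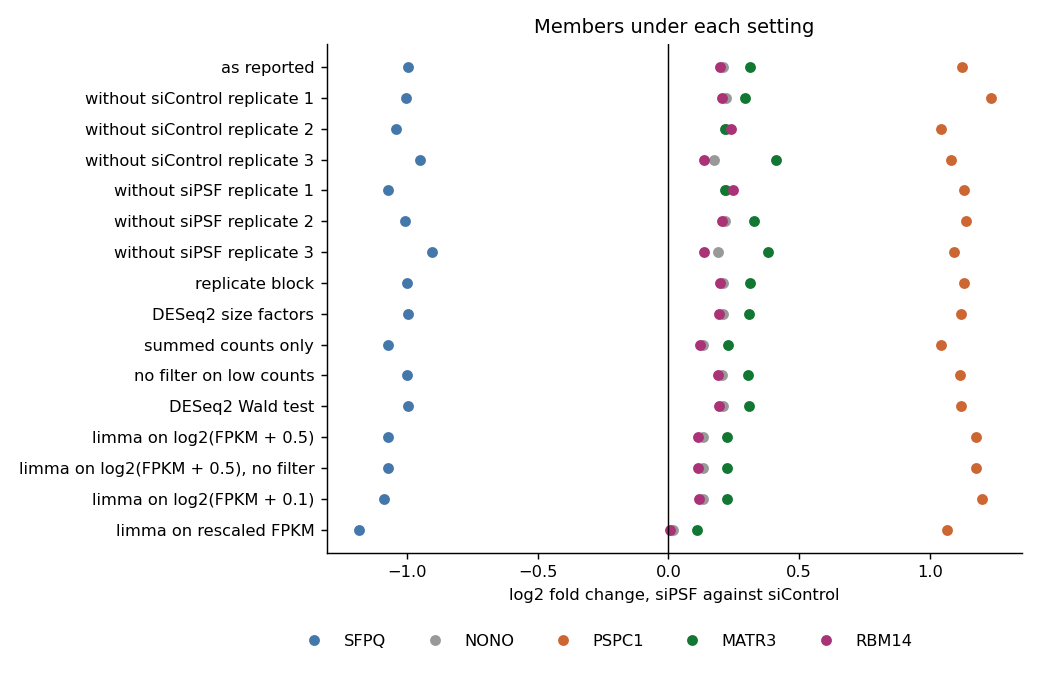
Log2 fold change of each member (x axis) as reported and under 15 other settings (y axis), with one colour per gene. SFPQ stays between -1.18 and -0.90 and PSPC1 between 1.04 and 1.23, while NONO (0.02 to 0.22), RBM14 (0.0045 to 0.25) and MATR3 (0.11 to 0.41) move towards 0 on rescaled FPKM. On that scale the median of all genes is -0.16.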

How the data were processed

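RNA-seq libraries of SH-SY5Y cells, 3 with siControl and 3 with siPSF, were compared, with groups taken from the sample titles. The authors deposited raw counts per gene and library, with an FPKM value beside each. Per the study's methods, rRNA reads were removed with Bowtie 2 and the rest mapped with TopHat and counted on RefSeq, whereas the submitters' processing notes list Trimmomatic, HISAT2 2.1.0, StringTie 2.1.3b and GRCh38; which of these made the deposited counts and FPKM was not settled. No listed count is below 1, so a gene without reads in even 1 library was not analysed here.

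Counts were filtered with edgeR's filterByExpr, scaled by TMM (factors 0.964 to 1.05) and fitted by quasi-likelihood in edgeR, with no block. Benjamini-Hochberg adjustment ran over all 19694 genes tested, with calls under 0.05. Replicates of a group differed with a chi-square of 22.6 or more per degree of freedom, so no library was a repeat of another. The members had 5211 counts or more per library. The fits used DESeq2 1.42.0, limma 3.58.1 and edgeR 4.0.16 under R 4.3.3, and the rest matplotlib 3.10.9, numpy 2.4.6 and pandas 2.3.3 under Python 3.11.15. Positions come from RefSeq GRCh38.p14, and sequences, transcript lengths and 50-base runs from GENCODE transcripts on GRCh38.

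The members and gene lists were chosen with earlier results of these data known. Named genes were the members, NEAT1 and the assembly genes, TARDBP, called list genes, overlapping genes and pseudogenes, RBM4, RBM14-RBM4, ZNF638 and the 3 nearest genes per member. Outside this rule, PTBP1, HNRNPL, NCOA6, CPSF7 and the called cell type markers were named after their values were seen. One gene that the rule selects is not reported here. Alternatives were leaving out each library, a replicate block, DESeq2's size factors, summed counts alone, no filter, DESeq2's Wald test, and limma on log2(FPKM + 0.5) for genes averaging 0.5 FPKM or more, then without that filter, then with a pseudocount of 0.1; per-length levels were also rescaled or divided by the implied length. Chosen after seeing the data were limma on rescaled FPKM and division by MANE Select length.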

Additional observations from a re-analysis of the deposited data

How the results depend on the processing

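Under the 15 other settings the members called lower stayed at 1, and those called higher at 1, or 2 without siControl replicate 3 or without siPSF replicate 3. As the contrast was known when the members were chosen, nothing is read from these counts of members. Leaving out 1 library gave 928 to 1735 genes lower and 572 to 1405 higher, the lowest without siControl replicate 2. Genes called higher numbered 831 with summed counts alone, 736, 634 and 737 by limma on log2(FPKM + 0.5), the same without a filter and log2(FPKM + 0.1), and 463 on rescaled FPKM, where 3409 were lower. For other paraspeckle genes, leaving out 1 library gave 1 to 3 higher, and summed counts alone (2 lower, 1 higher), limma on FPKM (1 lower, 1 higher) and limma on rescaled FPKM (7 lower, 1 higher) differed from the reported 0 and 2. For partners and relatives the count called lower was 0 to 1 without 1 library (HNRNPL, without siControl replicate 3), 3 with summed counts alone, 3, 2 and 3 by limma on FPKM, and 4 on rescaled FPKM. The log2 fold change of NONO was 0.13 with summed counts alone and by limma on FPKM, and on rescaled FPKM it was 0.0175 for NONO, -1.18 for SFPQ, 0.11 for MATR3 and 0.0045 for RBM14. The DBHS sum was 98.0% of siControl on rescaled FPKM, 111% on CPM per implied length and 103% per MANE length, where SFPQ made up 26.2% of the siControl sum. On rescaled FPKM the median log2 fold change of all genes was -0.16. For each of these shifts the cause was not tested.

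The fit with a replicate block called 1640 genes lower and 1389 higher, and with the replicate block SFPQ had a log2 fold change of -0.999 and PSPC1 one of 1.13. The numbers were not shown to pair the libraries, since same-numbered libraries deviated together with r of -0.022, 0.056 and 0.056. Of the values recomputed, 200 were labelled the same, 44 moved and 1 reversed. The same meant within the replicate spread, or for counts of genes within a fixed ratio of the reported count. The reversed value was the DBHS sum on rescaled FPKM, 98.0% beside 106% of siControl. Some labels were fixed in advance, since rescaling a library cannot change a gene's share within it, so nothing is read from their number. The members had 5211 counts or more in every library, and replicates differed by more than counting error.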
